A study of Mus musculus with 2 samples.

Results

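Chemokine ligands are small secreted proteins that direct the movement of leukocytes, and 10 of their genes were followed here across splenic dendritic cells of wild-type and Batf3-deficient mice. The genes were a fixed list of Ccl3, Ccl4, Ccl5, Ccl6, Ccl9, Ccl17, Ccl22, Cxcl9, Cxcl10 and Cxcl16, taken by name. All 10 were among the 17751 genes of the count tables.

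The transcripts came from CITE-seq, in which single cells are sequenced in droplets together with barcoded antibodies against surface proteins. Spleens of female C57BL/6 mice aged 8 weeks were used, with 1 library of wildtype (WT) mice and 1 library of Batf3-/- mice. For each library the splenocytes of 6 mice were pooled, T cells and B cells were depleted, and live cells bearing both MHCII and CD11c were sorted. WT mice were purchased, whereas Batf3-/- mice came from a commercial founder line and were bred in house, so genotype and colony cannot be told apart.

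Dendritic cells take up and present antigen to T cells, and they use chemokines to bring the cells they instruct within reach. Conventional dendritic cells are divided into cDC1, which need the transcription factor BATF3 and excel at presenting antigen to CD8 T cells, and cDC2, which mainly serve CD4 T cells. Ligands of CXCR3 recruit effector T cells and NK cells, ligands of CCR4 recruit regulatory and type 2 helper T cells, and ligands of CCR1 act mainly on myeloid cells.

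The 10 genes lie in 4 places of the mouse genome (GRCm38, GENCODE M21 annotation, all protein coding). Ccl5, Ccl9, Ccl6, Ccl3 and Ccl4 form a cluster of 5 members on chromosome 11, where Ccl9 and Ccl6 are 9245 bases apart and Ccl3 (chr11:83647844-83649355) and Ccl4 (chr11:83662584-83664683) are 13228 bases apart. Cxcl16 lies elsewhere on chromosome 11. Ccl22 (chr8:94745590-94751699) and Ccl17 (chr8:94810453-94812036) are neighbours at 58753 bases on chromosome 8. Cxcl9 (chr5:92321347-92328079) and Cxcl10 (chr5:92346638-92348889) are 18558 bases apart on the minus strand of chromosome 5. The promoters of the latter 2 pairs are shown because, in C1 and C2, cells with 1 gene of the pair held the other gene more often than cells without it, as described below. They are RefSeq sequences on GRCm38.p6, 5′ to 3′ on the strand of the gene, ending at the base before the start, with motif matches in capitals.
Cxcl9 promoter, chr5:92328080-92328329, minus strand: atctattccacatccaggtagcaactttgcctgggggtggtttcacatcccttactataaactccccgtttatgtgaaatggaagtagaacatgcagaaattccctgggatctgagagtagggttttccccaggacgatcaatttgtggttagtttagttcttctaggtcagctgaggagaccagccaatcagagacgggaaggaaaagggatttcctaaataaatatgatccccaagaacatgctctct
Cxcl10 promoter, chr5:92348890-92349139, minus strand: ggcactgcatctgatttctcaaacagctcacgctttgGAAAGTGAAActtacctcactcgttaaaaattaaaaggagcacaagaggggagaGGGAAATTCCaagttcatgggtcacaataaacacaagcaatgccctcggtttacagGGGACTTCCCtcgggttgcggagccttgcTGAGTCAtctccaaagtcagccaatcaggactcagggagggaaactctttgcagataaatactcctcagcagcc
Ccl17 promoter, chr8:94810203-94810452, plus strand: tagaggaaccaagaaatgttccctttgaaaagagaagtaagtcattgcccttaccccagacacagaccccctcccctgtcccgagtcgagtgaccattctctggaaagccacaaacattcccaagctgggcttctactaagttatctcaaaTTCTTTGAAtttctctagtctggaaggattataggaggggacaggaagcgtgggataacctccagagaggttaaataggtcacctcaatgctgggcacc
Ccl22 promoter, chr8:94745434-94745589, plus strand: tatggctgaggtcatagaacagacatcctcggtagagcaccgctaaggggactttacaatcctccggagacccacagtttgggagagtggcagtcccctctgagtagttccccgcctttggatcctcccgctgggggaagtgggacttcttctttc

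Both strands of the upstream bases were searched for an interferon-stimulated response element (ISRE, GAAA, any 2 bases, GAAA), an interferon-gamma activated site (GAS, TTCNNNGAA), an AP-1 site (TGANTCA), an NF-kB site and 2 composites of BATF and IRF sites (GAAA directly before the AP-1 letters, and GAAA 4 bases after them). The Cxcl10 promoter held an ISRE match from 213 to 204 bases before the start, NF-kB matches from 159 to 150 and from 103 to 94, and an AP-1 match from 74 to 68. The Ccl17 promoter held a GAS match from 99 to 91 bases before the start. No listed motif matched in the 250 upstream bases of Cxcl9 or Ccl22, and Ccl22 is printed over the 156 bases that lie before the start of its annotated gene. Of 32851 mouse promoters in the RefSeq table, 2.98% held the ISRE letters, 7.02% the GAS letters, 6.75% the AP-1 letters, 3.90% the NF-kB letters, and 0.1005% and 0.0974% the composites. Promoters were found for 7 of the 10 members, and Ccl4, Ccl5 and Cxcl16 were not among them. Of the 3 found but not printed, the Ccl9 promoter held an AP-1 match from 53 to 47 bases before the start and an NF-kB match from 35 to 26 on the other strand, and those of Ccl3 and Ccl6 held none. For Ccl3 alone, the bases after the start were not found in an annotated transcript of the gene. Its window may therefore not end at the annotated start. A match describes the letters of the window and not a bound site.

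The WT library held 12224 cells with 122530055 UMIs (unique transcript molecules) and a median of 8374.5 UMIs per cell, and the Batf3-/- library held 12119 cells with 114517073 UMIs and a median of 8516. Batf3 itself was at 206 CPM (defined below) in the WT library, in 8663 cells, and at 2.49 CPM in the Batf3-/- library, in 259 cells. The 2 libraries shared 56 cell barcodes. The deposited 20 clusters (C0 to C19) are called by the study's names. C4, C6, C12, C17 and C18 were named cDC1, and C4 and C12 held 31 Batf3-/- cells each, C17 held 1 and C18 held 2. In C6 the summed level of 6 cDC1 markers was 3679 CPM in WT and 1213 CPM in Batf3-/- cells, so cells of the same number were not alike in lineage markers between the libraries. A doublet caller marked 541 WT and 244 Batf3-/- cells.

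Levels are given as CPM, the UMIs of a gene per 1000000 UMIs of a cluster, with an exact Poisson 95% interval. A single library stood for each genotype, so the genotypes could not be tested against each other, and intervals cover counting error only, not the spread between mice. Intervals of levels and ratios also take each UMI as independent. They leave out the spread between cells and are too narrow where few cells hold the UMIs. Because depth per cell differed between clusters, main shares of cells with a UMI are given after every cell was thinned to 1000 UMIs as well as before, and numbers of carrying cells are before thinning. C19, a cluster of 29 WT and 36 Batf3-/- cells named stem cells, was taken as cells that should lack these genes. There, Ccl5 was found in 4 WT and 4 Batf3-/- cells (3.57% and 5.56% after thinning), at a median depth of 2918 and 5249.5 UMIs, and no other member was found in more than 3 cells of either library. Ccl6, Ccl17 and Ccl22 had no UMI in C19, where a count of 0, taking 3 cells as the limit, allows a share of up to 10.3% of WT cells and 8.33% of Batf3-/- cells.

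**Figure D1:**
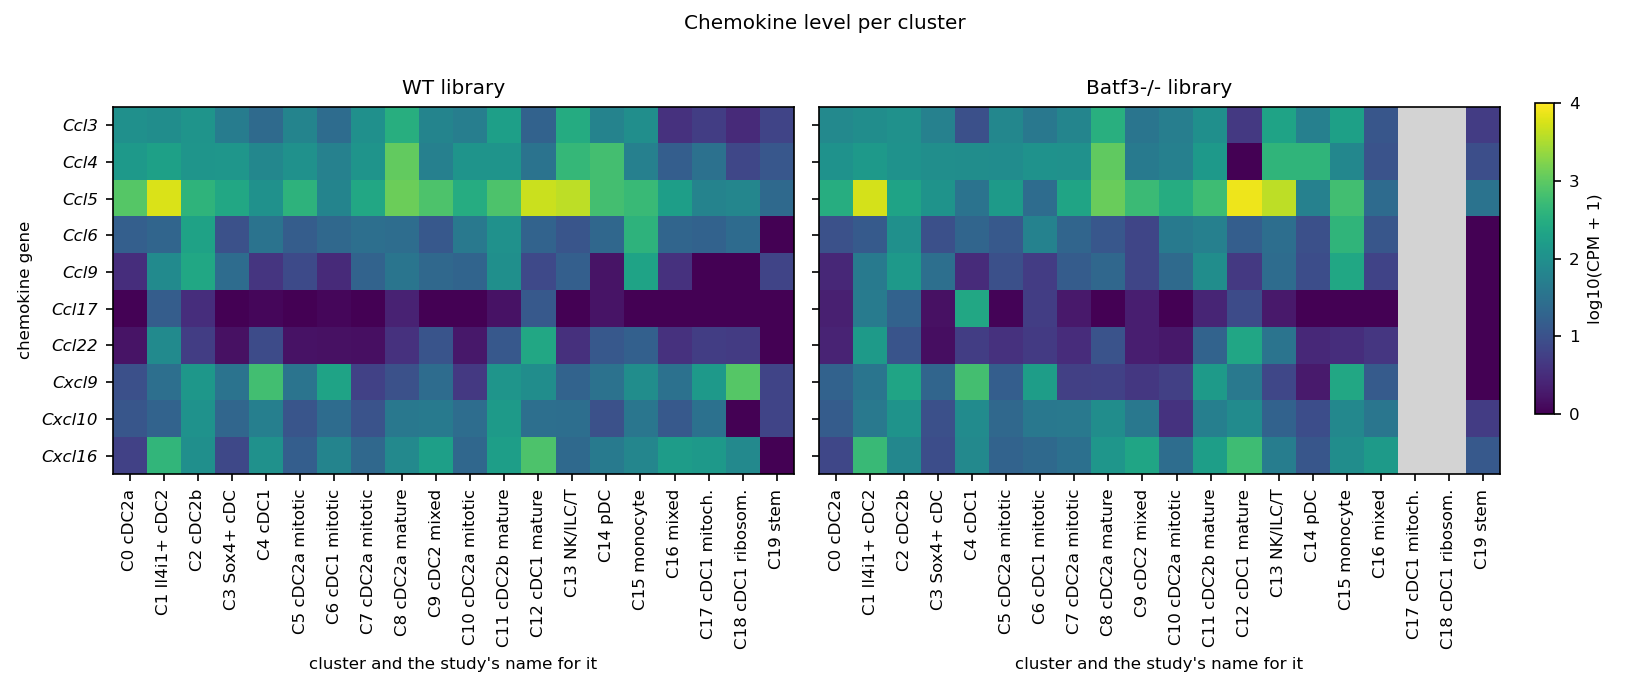
Level of each chemokine gene (rows) in each cluster (columns) of the WT and Batf3-/- libraries, as log10(CPM + 1) in colour, with grey for clusters of 1 or 2 cells. Among clusters of at least 100 cells, Ccl5 reached 5946 CPM in WT C1, Ccl4 1087 CPM in WT C8 and Cxcl9 608 CPM in WT C4. Ccl17 was at 14.1 CPM in WT C1 and 45.5 CPM in Batf3-/- C1. Smaller clusters went higher, with Ccl5 at 7958 CPM in Batf3-/- C12, Cxcl9 at 870 CPM in WT C18 and Ccl17 at 249 CPM in Batf3-/- C4.

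The ligands differed in the clusters that held them. Among the 17 clusters of at least 100 cells, both libraries summed, Ccl3 and Ccl4 were highest in mature cDC2a (C8), Ccl5 in Il4i1+ cDC2 (C1) and mature cDC1 (C12), Ccl6 and Ccl9 in monocytes (C15) and cDC2b (C2), Ccl17 in C1, Ccl22 and Cxcl16 in C12 and C1, Cxcl9 in cDC1 (C4) and Cxcl10 in cDC2b (C2). The 13 clusters with at least 100 cells in each library leave out C4, C12, C15 and C16, some of which led above. In WT, Cxcl9 was at 608 CPM in C4 against 206 CPM in C6, and Ccl22 at 247 CPM in C12 against 81.1 CPM in C1. Over the remaining 13, 8 of 10 members had the same leading cluster in both libraries, a share not computed for all genes. The exceptions were Cxcl9, led by C6 in WT and by C2 in Batf3-/- cells, and Cxcl10, led by C11 in WT and by C2 in Batf3-/- cells. The rank correlation of a member's levels between libraries over these 13 clusters ran from 0.38 for Ccl17 to 0.89 for Cxcl16, a description over clusters that share a library and its depth.

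Ccl3 and Ccl4 encode MIP-1 alpha and MIP-1 beta, which draw T cells, NK cells and monocytes, and Ccl3 binds CCR1. In C8, Ccl3 was at 325 CPM (308 to 343) in WT and 338 CPM (321 to 356) in Batf3-/- cells. It was carried by 168 of 531 WT cells (15.8% after thinning, 31.6% before) and 136 of 469 Batf3-/- cells (13.4% and 29.0%). The libraries therefore overlapped in level and in share. Ccl4 in C8 was at 1087 CPM (1055 to 1119) in WT and 1068 CPM (1037 to 1100) in Batf3-/- cells, with 279 and 221 carrying cells (33.1% and 24.9% after thinning, 52.5% and 47.1% before). C8 held 25.7% of all Ccl4 UMIs of the WT library and 27.0% of those of the Batf3-/- library, from 4.34% and 3.87% of the cells.

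The next clusters for Ccl3 and Ccl4 were not conventional dendritic cells. In C13, named NK/ILC/T, Ccl3 was at 285 CPM in WT and 207 CPM in Batf3-/- cells, and Ccl4 was at 459.7 CPM and 417 CPM. Within C13, 51 WT and 31 Batf3-/- cells that the deposited reference labels call NK cells held Ccl3 at 832 and 384 CPM, and the 56 and 19 cells labelled T cells held it at 12.5 and 13.2 CPM. The plasmacytoid dendritic cells of C14 held Ccl4 at 629 CPM (591 to 670) in WT and 419 CPM (381 to 460) in Batf3-/- cells, in 88 of 154 and 51 of 101 cells (24.0% and 23.8% after thinning). Ccl3 stood at only 60.9 and 54.7 CPM in the same cluster, so the pair was not matched there. Summed over 6 NK markers, C8 held 6.51 CPM in WT and 7.04 CPM in Batf3-/- cells, against 3437 and 3251 CPM in C13, and Ncr1 and Prf1 had no UMI in C8.

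Ccl5 encodes RANTES, a ligand of CCR1 and CCR3 that recruits T cells and NK cells. In C1 it was at 5946 CPM (5879 to 6015) in WT and 5426 CPM (5387 to 5465) in Batf3-/- cells. It was found in 658 of 721 WT cells (72.6% after thinning, 91.3% before) and in 1467 of 1845 Batf3-/- cells (54.2% and 79.5%), with up to 749 and 894 UMIs in a cell. Both the level and the share were lower in Batf3-/- C1 cells, the share by more than the level. In C12 Ccl5 was at 4753 CPM in 349 of 394 WT cells (74.1% after thinning) and at 7958 CPM in 30 of 31 Batf3-/- cells (83.9%), where a single cell held 683 UMIs or 31.0% of that cluster's total. C13 stood at 3993 CPM (3894 to 4093) in WT and 4011 CPM (3896 to 4128) in Batf3-/- cells, and the cells labelled NK there at 13759.6 CPM and 13263 CPM.

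Immature cDC2a (C0), the most numerous cluster, held Ccl5 in many cells, with a mean of 7.01 UMIs per carrying WT cell and 3.63 per carrying Batf3-/- cell, against 44.9 and 50.7 in C1. Its level was 879 CPM (866 to 891) in WT and 313 CPM (306 to 320.4) in Batf3-/- cells. The gene was found in 2733 of 3176 WT cells (48.0% after thinning, 86.1% before) and in 1885 of 2961 Batf3-/- cells (24.1% and 63.7%). The intervals did not overlap in level or share, and the highest number in 1 cell was 67 UMIs in WT and 97 in Batf3-/- cells. Median depth in C0 was 6648 UMIs per WT cell and 7187 per Batf3-/- cell, and its part in the difference was not tested. Among cells given the phase G1, Ccl5 in C0 was at 878 CPM in 2879 WT cells and 308 CPM in 2733 Batf3-/- cells, so the difference was of the same size in cells of that phase.

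Ccl6 and Ccl9 are rodent chemokines that bind CCR1 and are made mainly by monocytes and macrophages. In the monocytes of C15, Ccl6 was at 386 CPM (350.5 to 423) in 116 of 145 WT cells and 419.7 CPM (361 to 485) in 38 of 52 Batf3-/- cells. In cDC2b (C2) it was at 197 CPM (188 to 207) in 588 of 942 WT cells and 102 CPM (97.1 to 107) in 641 of 1520 Batf3-/- cells. The thinned shares in C2 were 18.6% and 9.21%, against 62.4% and 42.2% before thinning. Ccl6 in C2 was thus lower in the Batf3-/- library by both measures, while in C15 the intervals overlapped. Summed over 6 neutrophil markers, C2 held 87.6 CPM in WT and 10.6 CPM in Batf3-/- cells, and C15 held 9356 and 19998 CPM, beside 12988 and 19285 CPM of monocyte markers. The part of these shifts in the Ccl6 and Ccl9 values was not tested. Ccl9 in C2 was at 239.6 CPM (229 to 250.4) in 552 WT cells and 147.5 CPM (141 to 154) in 681 Batf3-/- cells, and in C15 at 210.2 CPM and 239 CPM.

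C2 is a mixture by the deposited reference labels, and both genes followed them. Among C2 cells labelled monocytes, Ccl6 was at 303 CPM in 384 WT cells and 162 CPM in 480 Batf3-/- cells. Among those labelled dendritic cells it was at 129 CPM in 552 WT cells and 76.9 CPM in 1040 Batf3-/- cells. Ccl9 stood at 393 and 314 CPM in the monocyte-labelled cells and at 141 and 76.8 CPM in the dendritic-labelled cells. Both members were lower in the Batf3-/- library under either label, and the summed level of 6 monocyte markers in C2 was 3374 CPM in WT and 2969.8 CPM in Batf3-/- cells, whose part in the difference was not tested.

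Ccl17 and Ccl22 encode TARC and MDC, the ligands of CCR4. Ccl17 was rare, with 143 UMIs in 46 cells of the WT library and 1109 UMIs in 139 cells of the Batf3-/- library. In C1 it was at 14.1 CPM (11.0 to 17.8) in 23 WT cells and 45.5 CPM (42.0 to 49.2) in 95 Batf3-/- cells. The shares were 3.19% and 5.15% before thinning and 1.25% and 1.46% after it, the latter with intervals of 0.573 to 2.36% and 0.967 to 2.12%, so a difference in the share of carrying cells was not detectable after thinning. A few cells held much of it, with 50% in 3 WT and 5 Batf3-/- cells of C1. Without the top 1% of cells the log2 ratio in C1 was 1.42. Leaving out 1% of all cells takes out a sizeable part of the 23 WT and 95 Batf3-/- carriers. That value therefore cannot settle how far the ratio rests on few cells. The highest Batf3-/- cell of C1 held 178 Ccl17 UMIs and 263 Ccl22 UMIs, a Batf3-/- cell of C2 held 146 of its cluster's 258 Ccl17 UMIs, and 1 Batf3-/- cell of C4 held all 117 of that cluster, against a highest WT cell of 31 UMIs.

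Ccl22 was led by mature cDC1 (C12), at 247 CPM (229.8 to 266) in 178 of 394 WT cells (14.4% after thinning) and 231 CPM (178 to 295.5) in 19 of 31 Batf3-/- cells (19.4%). In C1 it was at 81.1 CPM (73.3 to 89.4) in 94 WT cells and 148 CPM (142 to 155) in 296 Batf3-/- cells. The thinned shares in C1 were 3.89% (2.60 to 5.57%) in WT and 5.64% (4.63 to 6.79%) in Batf3-/- cells, and 13.04% and 16.0% before thinning. The shares thus overlapped within counting error while the levels did not. C13 gave 2.58 CPM in WT and 33.8 CPM in Batf3-/- cells, of which 1 cell held 33 of the 39 UMIs.

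Cxcl9 encodes MIG, an interferon-gamma induced ligand of CXCR3 that recruits effector T cells. In C4 it was at 608 CPM (599.7 to 616) in 1490 of 2202 WT cells, or 25.2% of cells after thinning and 67.7% before. The 31 Batf3-/- cells of C4 gave 646 CPM (575 to 723), with 15 carrying cells and 135 of the 304 UMIs in 1 cell. The level was thus of like size, but the Batf3-/- value rested on few cells. The ribosomal cDC1 cluster C18 gave 869.9 CPM (789.8 to 956) in 58 of 76 WT cells (46.1% after thinning). In mature cDC1 (C12) the WT level was 89.3 CPM, below that of the immature cluster.

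In mitotic cDC1 (C6) Cxcl9 was at 206 CPM (199 to 214) in 409 of 797 WT cells and 167 CPM (160.3 to 174) in 144 of 727 Batf3-/- cells. Thinned shares were 12.2% and 5.09% (51.3% and 19.8% before), and 6 Batf3-/- cells held 50% of that library's Cxcl9 UMIs in C6, against 40 WT cells. The C6 ratio was -0.30, and -1.29 without the top 1% of cells. The phases differed. WT cells of phase S and G2M, 474 and 310 in number, held Cxcl9 at 241 and 156 CPM, whereas the 354 and 184 Batf3-/- cells of these phases held 83.1 and 15.2 CPM. The 189 Batf3-/- cells of phase G1 held 609.6 CPM and the 13 WT cells of that phase held 149 CPM. The direction in C6 was thus the other way in G1, where only 13 WT cells with 30 Cxcl9 UMIs in all stand. How many Batf3-/- cells of G1 carried their 1620 UMIs was not counted, so a turn with the phase is not shown.

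Cxcl9 was also present outside cDC1. In cDC2b (C2) it was at 129 CPM (121 to 137) in 115 of 942 WT cells and 212 CPM (205 to 219) in 197 of 1520 Batf3-/- cells, with shares of 12.2% and 12.96% before thinning and 4.14% and 4.93% after it. Here 6 WT and 11 Batf3-/- cells held 50% of the UMIs. The C15 value of 248 CPM in Batf3-/- cells was nearly all 1 cell with 107 UMIs.

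Cxcl10 encodes IP-10, a second ligand of CXCR3 that is induced by interferons of several types. It was at 107 CPM (100.3 to 115) in 68 WT cells of C2 and 113 CPM (108 to 119) in 130 Batf3-/- cells, with thinned shares of 3.18% and 3.68%, and 7.22% and 8.55% before thinning. Most cells of any cluster had no Cxcl10 UMI, and the carrying cells could hold many, up to 113 UMIs in a WT cell and 243 in a Batf3-/- cell of C2. In C11 the level was 150.2 CPM in WT and 52.8 CPM in Batf3-/- cells, and 1 WT cell held 147 of 269 UMIs and 1 Batf3-/- cell 74 of 135. In C4 it was at 51.7 CPM in 210 WT cells, and in C8 at 39.1 CPM in 33 WT cells and 89.0 CPM in 48 Batf3-/- cells.

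Cxcl16, which is made as a membrane protein and draws CXCR6-bearing T cells and NKT cells once it is shed, was spread over many cells. In C12 it was at 751 CPM (720.0 to 783) in 348 of 394 WT cells (48.5% after thinning, 88.3% before) and at 575 CPM (489 to 672) in 30 of 31 Batf3-/- cells. In C1 it was at 435 CPM (417 to 453) in 480 of 721 WT cells and 511.5 CPM (499.6 to 524) in 1327 of 1845 Batf3-/- cells, with shares of 66.6% and 71.9% before thinning and 32.5% and 36.8% after it. No cell of either library held more than 28 Cxcl16 UMIs. In C4 it was at 106 CPM and in C0 at 4.95 CPM in WT cells.

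**Figure D2:**
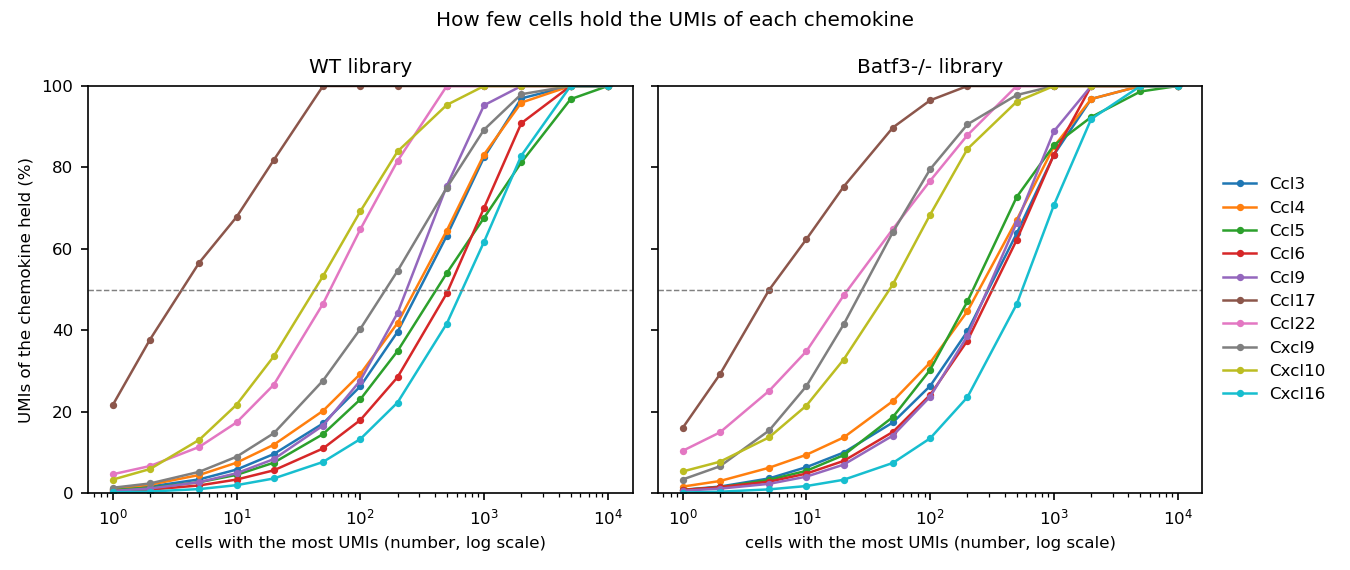
Percent of each chemokine's UMIs in a library (vertical axis) that is held by the cells with the most of it (horizontal axis, number of cells, log scale), with a dashed line at 50%. Ccl17 passes 50% within 4 WT and 6 Batf3-/- cells, whereas Cxcl16 needs 677 and 557 cells.

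The number of cells behind a level differed widely between members. In the whole WT library 50% of the UMIs were held by 4 cells for Ccl17, 44 for Cxcl10, 58 for Ccl22, 162 for Cxcl9, 241 for Ccl9, 288 for Ccl4, 306 for Ccl3, 413 for Ccl5, 514 for Ccl6 and 677 for Cxcl16. In the Batf3-/- library the numbers were 6 for Ccl17, 48 for Cxcl10, 22 for Ccl22, 29 for Cxcl9, 302 for Ccl9, 255 for Ccl4, 305 for Ccl3, 222 for Ccl5, 332 for Ccl6 and 557 for Cxcl16. The number was lower in the Batf3-/- library for 7 of 10 members, and higher for Ccl17, Cxcl10 and Ccl9. For Ccl3, counted among the 7, it was nearly the same (306 and 305 cells). The share of all genes with a lower number was not computed, so the count is not a trait of chemokines. The sizes of the clusters also differed between the libraries, and the part of this in these numbers was not tested. Cells with at least 10 UMIs numbered 613 for Cxcl9 in WT, 465 of them in C4, and 136 in Batf3-/- cells, 55 of them in C2. For Ccl5 they numbered 1879 in WT and 1185 in Batf3-/- cells and held 80.1% and 87.4% of its UMIs.

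**Figure D3:**
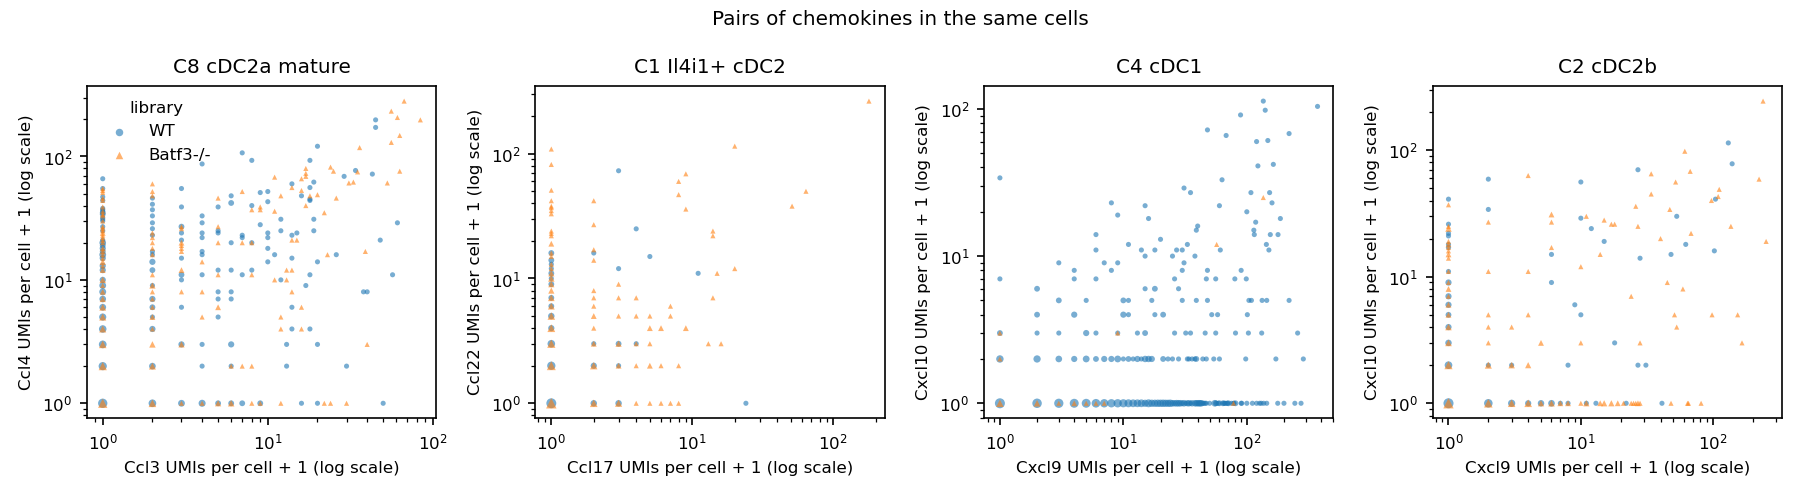
UMIs per cell of paired chemokines (both axes log scale, value + 1) in C8, C1, C4 and C2, with WT cells as circles and Batf3-/- cells as triangles, larger symbols standing for more cells. In C8, 125 of 168 WT cells with Ccl3 also held Ccl4, and in C2, 25 of 115 WT and 63 of 197 Batf3-/- cells with Cxcl9 also held Cxcl10.

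Several pairs of members that are neighbours in the genome shared cells within a cluster. The closest of these neighbours, Ccl6 and Ccl9, did so less after thinning, as given below. In C8, Ccl4 was present in 74.4% of the WT cells with Ccl3 and 42.4% of those without it, and in 75.7% and 35.4% of Batf3-/- cells. After thinning these shares were 69.0% and 26.4% in WT and 61.9% and 19.2% in Batf3-/- cells, so the pairing held at equal depth. In C1, Ccl22 was present in 14 of 23 WT cells with Ccl17 (60.9%) and in 11.46% of the others, and in 65 of 95 Batf3-/- cells (68.4%) and 13.2% of the others. After thinning the Batf3-/- shares were 51.9% and 4.95%, and 9 WT cells kept a Ccl17 UMI, of which 2 also held Ccl22.

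Cxcl10 was present in 21.7% of WT C2 cells with Cxcl9 and 5.20% of those without, and in 32.0% and 5.06% of Batf3-/- cells. After thinning these shares were 23.1% and 2.33% in WT and 30.7% and 2.28% in Batf3-/- cells. In C4 the WT shares were 12.95% and 2.39% (7.40% and 0.789% after thinning), and 193 of the 210 WT cells with Cxcl10 also held Cxcl9. The other pairs given here differed less when the shares after thinning are taken as a ratio. In C2, Ccl9 was present in 70.2% of WT cells with Ccl6 and 39.3% of the others, but after thinning in 25.1% and 16.8%. In mature cDC1 (C12), Ccl22 was present in 45.0% of WT cells with Ccl5 and 46.7% of those without (13.5% and 16.8% after thinning). These shares describe cells of 1 library each and carry no test. A single pair of members that are not neighbours is given, and the part of genome position was not tested.

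**Figure D4:**
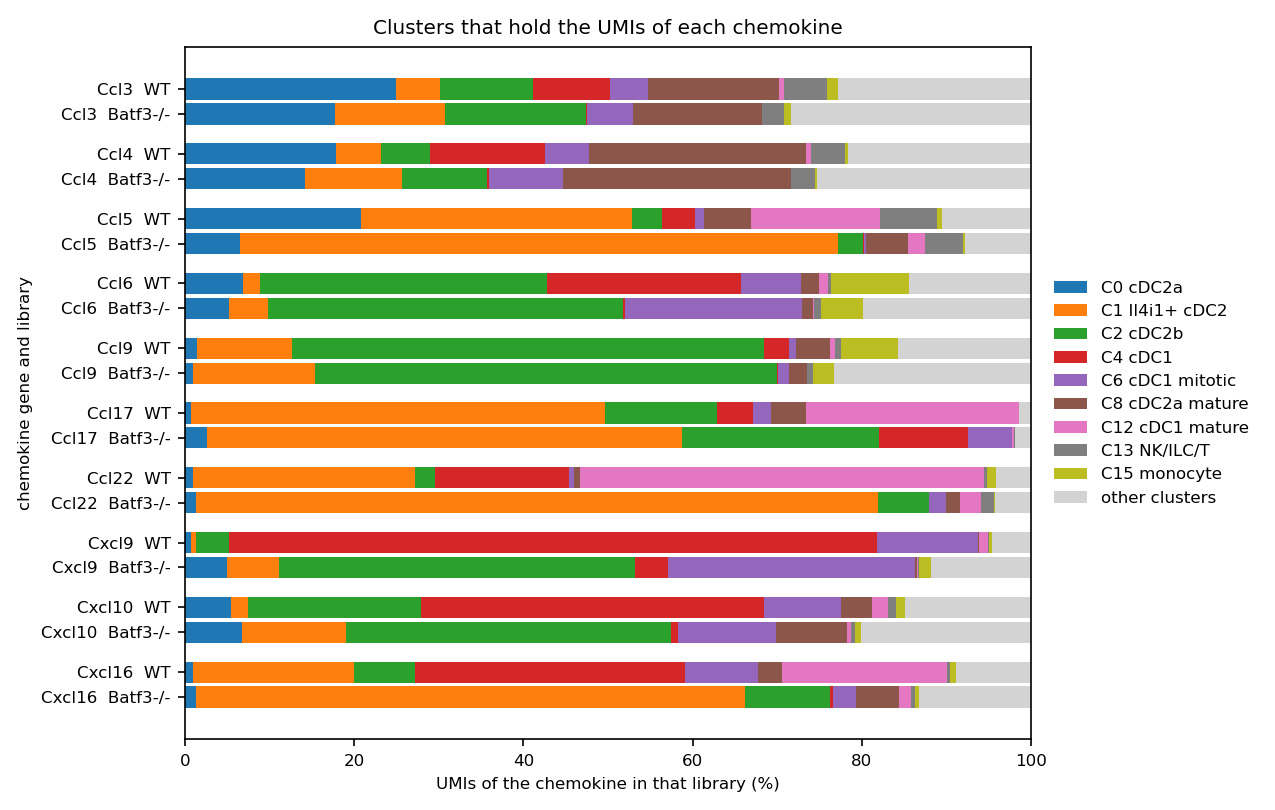
Percent of each chemokine's UMIs (horizontal axis) that lies in selected clusters (colours) and in all other clusters together (light grey), with 1 bar per gene and library. C4 holds 76.7% of Cxcl9 UMIs in WT, and C1 holds 70.7% of Ccl5, 80.6% of Ccl22 and 64.9% of Cxcl16 UMIs in the Batf3-/- library.

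Over whole libraries, Cxcl9 was at 221 CPM (218 to 224) in WT and 67.4 CPM (65.9 to 68.9) in Batf3-/- mice, a log2 ratio of -1.71 (-1.75 to -1.68). It was the only one of the 9 members with enough UMIs whose library level differed by more than 2-fold, where 2.08% of 7403 genes did. With the Batf3-/- clusters weighted to the WT make-up its log2 ratio was 0.052. That value leans on C4, which makes up 27.9% of WT UMIs. Its Batf3-/- level rests on 31 cells, with much of the Cxcl9 in a single cell. Ccl17, which was below the limit of 10 CPM, went from 1.17 to 9.68 CPM. Ccl22 went from 12.5 to 22.0 CPM, Ccl5 from 753 to 919 CPM, and Cxcl16 from 92.8 to 94.3 CPM. At the WT make-up the log2 ratio of Ccl5 turned from 0.29 to -0.25 and that of Cxcl16 from 0.02 to -0.24, and for Ccl22 it was 0.32 in place of 0.81. The median log2 ratio was 0.15 over the 9 members and 0.06 over all genes compared.

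Behind these totals the clusters holding the UMIs changed places. Of Cxcl9 UMIs, 76.7% lay in C4 and 11.9% in C6 in WT, against 42.1% in C2 and 29.2% in C6 in Batf3-/- cells. Of Ccl22 UMIs, C12 held 47.8% and C1 held 26.3% in WT, whereas C1 held 80.6% in the Batf3-/- library, where it made up 15.2% of cells against 5.90% in WT. Ccl5 went from 32.0% to 70.7% in C1 and Cxcl16 from 19.01% to 64.9%. Without the 5 clusters named cDC1, a comparison chosen after the data were seen, Cxcl9 was at 34.0 CPM in WT and 51.4 CPM in Batf3-/- cells. That sum mixes clusters whose shares differed, since C2 was 7.71% of WT and 12.5% of Batf3-/- cells. Cluster by cluster the Cxcl9 level was lower in the Batf3-/- library in 5 of 9 clusters compared and higher in 4.

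**Figure D5:**
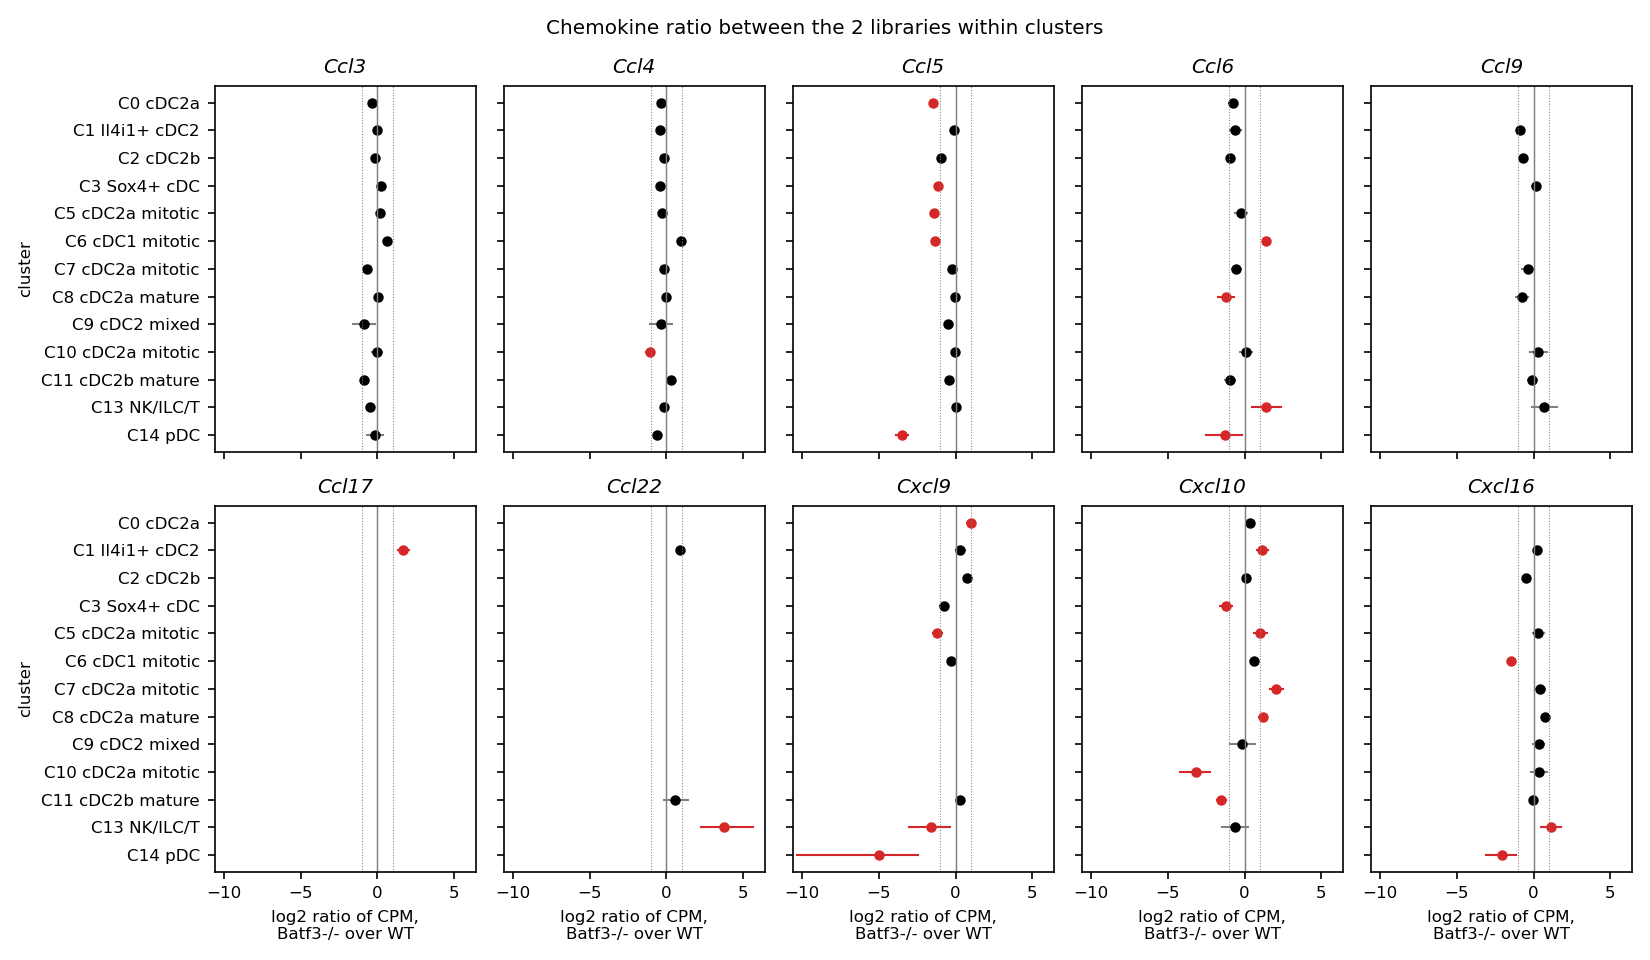
Log2 ratio of CPM, Batf3-/- over WT (horizontal axis), of each chemokine in each cluster with at least 100 cells in both libraries, with exact 95% intervals for counting error, dotted lines at 2-fold and ratios past it in red. Ccl5 lies at -1.49 in C0 and -3.49 in C14 and at -0.13 in C1, and Cxcl10 runs from -3.16 in C10 to 2.05 in C7.

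Within clusters, a member was compared where both libraries had at least 100 cells and the gene had at least 20 UMIs and a mean of 10 CPM. In C0, 2 of 6 members differed by more than 2-fold, where 0.31% of genes did. These were Ccl5, with a log2 ratio of -1.49 (-1.53 to -1.45), and Cxcl9, with 1.00 (0.75 to 1.26), which was at 0.39 with equal weight per cell and at -0.85 without the top 1% of cells. In C1, 2 of 10 did, where 0.36% of genes did: Ccl17 with 1.69 (1.33 to 2.07) and Cxcl10 with 1.16 (0.83 to 1.496). Of the other members in C1, Ccl22 was at 0.87 (0.71 to 1.03), Ccl9 at -0.88 (-1.07 to -0.69), Ccl6 at -0.61 and Ccl4 at -0.43. Cxcl9 at 0.31, Cxcl16 at 0.23, Ccl5 at -0.13 and Ccl3 at -0.03 were closer to 0. In C2 none of 8 members passed 2-fold, where 0.374% of genes did, although Ccl5 at -0.97 and Ccl6 at -0.95 were near the limit, and 0.345% and 0.374% of genes had lower ratios there.

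In 12 of 13 clusters the Ccl5 level was lower in the Batf3-/- library, by more than 2-fold in 5 of them, with a median log2 ratio of -0.50. In Sox4+ cDC (C3), 2 of 6 members passed 2-fold, where 0.0689% of genes did: Ccl5 with -1.15 (251 to 113 CPM) and Cxcl10 with -1.21. In mitotic cDC2a (C5), 3 of 7 passed, where 0.258% of genes did: Ccl5 with -1.38 (390.1 to 149.5 CPM), Cxcl9 with -1.19 and Cxcl10 with 1.03. Without the top 1% of cells Cxcl9 in C5 was at -0.21, and without called doublets Cxcl10 in C5 was at 0.90. In phase S, Cxcl10 in C5 was at 10.7 CPM in 643 WT cells and 16.6 CPM in 830 Batf3-/- cells, less than 2-fold apart. Of its 226 Batf3-/- UMIs, 60 lay in 68 cells of phase G1, whereas the 18 WT cells of that phase held none. In C6, where lineage markers differed, 3 of 7 passed and 4.12% of genes did: Ccl6 with 1.42, Ccl5 with -1.33 and Cxcl16 with -1.50. Among cells of phase G1, of which WT had 13 and Batf3-/- had 189 in C6, these were -0.46, 0.04 and -0.14. In phases S and G2M, which held the other WT cells, the differences had the direction of the whole cluster. Ccl6 was at 18.7 and 23.1 CPM in WT against 45.0 and 63.3 CPM in Batf3-/- cells, Ccl5 at 60.9 and 68.2 against 25.6 and 17.3 CPM, and Cxcl16 at 55.6 and 75.7 against 21.7 and 20.1 CPM. Of the 992 Ccl5 UMIs of WT C6, 239 lay in 1 cell, and with called doublets left out the Ccl5 ratio was 0.31. By contrast, Ccl5 lay close to 0 in C8 (-0.04), C10 (-0.02) and C13 (0.01). C13 is a mixture by label. Its cells labelled ILC held Ccl5 at 5845 CPM in WT and 4130 CPM in Batf3-/- cells, and those labelled T cells at 204 and 132 CPM. Those labelled NK cells held it at 13759.6 and 13263 CPM and those labelled dendritic cells at 2024 and 2043 CPM.

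In plasmacytoid dendritic cells (C14), 4 of 6 members passed 2-fold, where 3.47% of genes did, all of them lower in Batf3-/- cells. Ccl5 went from 638 CPM (599 to 679) to 56.6 CPM (43.1 to 73.0), and it was found in 41 of 154 WT and 25 of 101 Batf3-/- cells (26.6% and 24.8%, and 9.09% and 3.96% after thinning). Of the 995 WT UMIs, 4 cells held 50%. Cxcl9 had 48 UMIs in WT, 26 of them in 1 cell, and 1 UMI in Batf3-/- cells. Cxcl16 was at -2.05 and Ccl6 at -1.25, the latter at -0.78 in G1 cells. The caller marked 25 WT and 14 Batf3-/- cells of C14 as doublets, and without them the Ccl5 ratio was -3.13. The thinned shares overlapped within counting error, at 5.06 to 14.8% and 1.09 to 9.83%. The level intervals did not, but they leave out the spread between cells, and few cells held much of the WT Ccl5.

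Cxcl10 was higher in Batf3-/- cells in 7 of 12 clusters and lower in 5. In C7, it was the only one of 7 members past 2-fold, where 0.255% of genes were, with 2.05, but 1 of 65 carrying Batf3-/- cells held 108 of 328 UMIs and the ratio was 1.24 without the top 1% of cells. In C8, 2 of 7 passed, where 0.734% of genes did: Cxcl10 with 1.19 and Ccl6 with -1.18. In C10, 2 of 7 passed, where 0.475% of genes did: Cxcl10 with -3.16, on 64 and 11 UMIs, and Ccl4 with -1.08. Cxcl10 was at -2.28 without the top 1% of cells, and Ccl4 was at -0.66 in G1 cells. In C11, 1 of 9 passed, where 1.24% of genes did: Cxcl10 with -1.51, which was -2.56 without the top 1% of cells. In C13, 4 of 9 passed, where 3.18% of genes did: Ccl22 with 3.71, Ccl6 with 1.38 and Cxcl16 with 1.12, and Cxcl9 with -1.57, each on at most 55 UMIs in a library. The cells of C13 differed in kind, with 56 of 241 WT and 19 of 146 Batf3-/- cells labelled T cells. Its summed cDC1 markers were at 500 and 191 CPM. The part of this in the 4 ratios was not tested. Without the top 1% of cells Ccl6 in C13 was at 0.69 and Ccl22 at 2.41, and in G1 cells Cxcl9 was at -0.60. Without called doublets, 41 WT and 4 Batf3-/- cells of C13, the 4 ratios were 5.21 for Ccl22, 3.20 for Ccl6, 2.04 for Cxcl16 and -2.81 for Cxcl9. Before any cell was left out, Ccl22 in C13 had 4 WT and 39 Batf3-/- UMIs, most of the 39 in 1 cell. All of its ratios there rest on few UMIs. In C9, a cluster of shallow cells with medians of 1467 and 1487 UMIs, none of 5 members passed, where 5.13% of genes did. The median over the members compared ran from -1.65 in C14, where it was 0.02 over all genes, to 0.61 in C6, where it was 0.01. Of all 26 ratios past 2-fold, 24 stayed past 2-fold the same way without called doublets, 21 without the top 1% of cells and 15 in cells of phase G1, where the mitotic clusters in part gave no value. The direction reversed for 1, 1 and 2 of them. Ccl22 in C13 was among the 24 and the 21, so staying past 2-fold does not mean that many cells carry the difference.

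Cells that carried a chemokine were set beside the other cells of their cluster. WT C2 cells with Cxcl10 held 13 interferon response genes at 4182 CPM against 666 CPM in the others, and Batf3-/- cells at 3376 against 614 CPM. These are log2 differences of 2.65 and 2.46, at median depths of 9274 and 8311 UMIs in WT. The same carriers differed by -0.22 and -0.11 in 12 immediate early and dissociation genes. Cxcl9 carriers of C4 differed less in interferon response genes, at 486 against 385 CPM in WT. Ccl3 carriers of C8 differed by 0.05 in WT and 0.10 in Batf3-/- cells in the immediate early genes, and by 2.24 and 3.09 in Ccl4. That comparison lies within C8, which as a whole was high for many genes of this list. Among clusters of at least 100 cells it led for every gene of this list except Jun, Hspa1a and Hspa1b, with Fos at 2410 CPM. The part of this in the Ccl3 and Ccl4 levels of C8 was not tested. Cxcl16 carriers of C1 held 8 mature dendritic cell genes, such as Ccr7 and Fscn1, at log2 differences of 0.83 and 1.03. Carriers were chosen by their own UMIs, so these values are a description.

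The 3 genes whose level was most like a member's were taken over the 17 clusters of at least 100 cells, both libraries summed, among 8364 genes. For Ccl5 they were Lta (Pearson r 0.86), Mmp25 (0.84) and Rela (0.83), and for Ccl22 Fas (0.94), Bcl2l1 (0.90) and Mmp25 (0.88). Cxcl16 was most like Apol7c (0.92), Il15 (0.92) and Strip2 (0.91), and Cxcl9 like Aif1 (0.88), Cpq (0.86) and Sult1a1 (0.86). For Ccl6 they were Lyz2 (0.89), F13a1 (0.88) and Fcgr1 (0.87), and for Ccl9 Adgre4 (0.87), Wfdc17 (0.86) and Ms4a6d (0.85). Ccl3 and Ccl4 had each other among their 3 (0.81), beside Plek (0.83) and Stk17b (0.82) for Ccl3 and Bcl7b (0.77) and Plcxd2 (0.75) for Ccl4. For Cxcl10 they were Mt1 (0.88), Myof (0.84) and Lyz1 (0.78), and for Ccl17, which rests on few cells, Phf11a (0.79), Iscu (0.77) and Phf11b (0.75). These choices depended on the setting. Of the 30 genes, 13 were among the 10 most alike in the WT library alone, over 13 clusters, and 19 by rank correlation. None of the 3 genes of Ccl5 was among the 10 under either, with Rela at 0.50 in WT, and none of those of Ccl22 or Ccl4 was in WT alone. The points share libraries and depth, and likeness over clusters says nothing of single cells.

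Of 30 other chemokine ligands 19 were in the tables, and 10 had at least 100 UMIs in the 2 libraries. Ccl25 had 2436 UMIs, never more than 3 in a cell, and Xcl1 had 1953 UMIs, of which 87.7% lay in C13. Among receptors of the members, Cxcr3 had 2976 UMIs and Ccr1 had 1438, of which 74.5% lay in C3. Cxcr3, the receptor of Cxcl9 and Cxcl10, was at 17.4 CPM in WT and 7.42 CPM in Batf3-/- cells. Ccr4, the receptor of Ccl17 and Ccl22, which is named here after its count was seen, had 9 UMIs. Of proteases known to shed or trim these ligands, Adam10 was at 25.6 and 30.4 CPM, Adam17 at 42.9 and 47.6 CPM and Dpp4 at 157 and 164 CPM in WT and Batf3-/- cells.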

How the data were processed

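Transcripts of sorted splenic MHCII+ CD11c+ cells were counted in 1 WT and 1 Batf3-/- library. Per the study's methods, the authors made the deposited counts (whole UMIs per gene and cell) with Cell Ranger, whose aggregate step also evened out sequencing depth between the libraries, so their totals are not the original depths. They kept cells with 500 to 5000 genes, under 20% mitochondrial and under 50% ribosomal reads, and clustered them with Seurat 3.0.5 at resolution 0.5. The deposited table of cells also gives the mitochondrial and ribosomal UMIs of each cell as a fraction, which the authors computed in Seurat. Deposited clusters, phases and reference labels were used as given.

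Here UMIs were summed per cluster and library and divided by all UMIs. Intervals are exact (Poisson for CPM, Clopper-Pearson for shares, binomial for ratios). Thinning to 1000 UMIs left out 28 WT and 42 Batf3-/- cells. Doublets were called with Scrublet in scanpy 1.11.5 at an expected rate of 0.1, and were kept except where stated. At a rate of 0.05 it marked 461 WT and 0 Batf3-/- cells. Python 3.11.15, numpy 2.4.6, scipy 1.17.1, pandas 2.3.3 and matplotlib 3.10.9 were used. On simulated counts for C1 (6929 genes), the interval covered the true ratio of 193 of 200 changed genes. Those were independent Poisson counts, as the interval assumes. They lack the gathering of UMIs in few cells, so coverage under it was not tested.

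The named genes were the 10 members, the 3 genes most like each by Pearson r of log2(CPM + 1) (at least 20 CPM in 1 cluster and 100 UMIs), and up to 4 genes of each other list by UMIs. The members and lists were chosen with earlier results of these data known. Surface protein counts were not analysed here. Results for 1 listed gene are not reported here. Alternatives were equal weight per cell, another total, no doublets, no top 1% of cells, G1 cells and other thinning depths.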

Additional observations from a re-analysis of the deposited data

How the results depend on the processing

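Whole-library ratios (log2, Batf3-/- over WT) depended on the cluster make-up. With Batf3-/- clusters weighted to the WT make-up they were -0.22 for Ccl3 (0.21 as measured), -0.047 for Ccl4 (0.04), -0.25 for Ccl5 (0.29), -0.34 for Ccl6 (-0.27), -0.46 for Ccl9 (0.31), 5.97 for Ccl17 (3.05), 0.32 for Ccl22 (0.81), 0.052 for Cxcl9 (-1.71), 0.54 for Cxcl10 (0.15) and -0.24 for Cxcl16 (0.02). The weighting raises the 31 Batf3-/- cells of C4, 1 of which held all of that cluster's Ccl17 and another much of its Cxcl9. Without the 5 clusters named cDC1, chosen after seeing the data, they were -0.28 for Ccl3, -0.42 for Ccl4, -0.059 for Ccl5, -0.71 for Ccl6, -0.28 for Ccl9, 2.71 for Ccl17, 1.60 for Ccl22, 0.60 for Cxcl9, 0.37 for Cxcl10 and 0.67 for Cxcl16. Without C13, C15 and C19 Ccl5 was at 0.32. Within clusters, leaving out the top 1% of cells gave -0.14 for Ccl4 in C8, 0.48 for Ccl22 in C1, -1.29 for Cxcl9 in C6, 0.23 for Cxcl10 in C2 and -0.85 for Cxcl9 in C0. Cells of phase G1 gave -0.20 for Ccl4 in C8, 2.03 for Cxcl9 in C6, 0.34 for Cxcl10 in C2, 0.037 for Ccl5 in C6 and -0.46 for Ccl6 in C6. Equal weight per cell gave -0.19 for Ccl5 in C1 and -0.11 for Cxcl9 in C6. Leaving mitochondrial and ribosomal genes out of the total gave -0.11 for Ccl5 in C1, and leaving out doublets gave 0.31 for Ccl5 in C6. The cause of these changes was not tested. Leaving out shared barcodes, also chosen after seeing the data, moved none of 35 ratios beyond its interval. No paired analysis was possible because each genotype has 1 library, and no replicate could be left out for the same reason. Counting error is wide where few cells carry a member, as for Ccl17 with 46 WT and 139 Batf3-/- cells.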
